A study of Mus musculus with 2 samples.

Results

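The DNA replication and nucleotide supply genes described here are 40 genes, named by symbol and chosen for their known function, of 22072 genes in the deposited tables of whole mouse lung. The choice was made with earlier results of these data known, so the shares of all genes given below are a description and not a test. All 40 were found by an exact match to the gene symbol, and the FPKM values of a gene's transcripts were summed. FPKM counts sequenced fragments relative to the length of a transcript and the size of its library. The knockout pool came from mice with floxed Foxf1 alleles and Pdgfb-iCreER, and the control pool from mice with floxed Foxf1 alleles and no Cre. Both pools are on the C57/BL6 background, and RNA from the lungs of several mice was combined into 1 library per genotype. Pdgfb-iCreER is an inducible Cre that is active in endothelial cells. Whether other lung cells of these mice kept their Foxf1 alleles was not measured here. The series concerns FOXF1 in the lung endothelium. The labels state neither the age, sex and number of the mice nor the induction schedule.

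With 1 pooled library per genotype no difference has a replicate check, and no p-value was computed. The intervals printed after a fold are 95% counting intervals, which leave out the variation between mice, pools and library preparations. In whole-lung RNA, a larger number of cells with a transcript and more transcript per cell cannot be told apart. Estimated depth was 10.4 M reads in the knockout library and 13.2 M in the control library. Foxf1, the targeted forkhead gene, had 15.7 FPKM in knockout lungs and 72.1 in control lungs, which is 4.59-fold lower (3.97 to 5.34). The control mice lacked Cre, so effects of Cre and of Foxf1 loss cannot be told apart. The 12 genes used to check the tissue were all over a mean FPKM of 1. Sftpc of alveolar type 2 cells had 13793 FPKM in the knockout pool and 15925 in the control pool. Of the 12, 8 had a counting interval wholly below equality, as had 2822 of all 12929 genes over that mean. The lowest of the 12 was Scgb1a1 of club cells, at 22774 FPKM in the knockout pool and 35265 in the control pool, 1.55-fold lower (1.54 to 1.56). Both that were at least 1.5-fold higher were the macrophage marker Marco, described with its list, and the fibroblast collagen gene Col1a1, at 113 FPKM in the knockout pool and 43.4 in the control pool, 2.59-fold higher (2.49 to 2.70).

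A cell copies its genome once per division. In G1 phase the loaders CDC6 and CDT1 place the MCM2-7 helicase on origins, and in S phase CDC45, GINS and MCM10 help to turn it into a moving fork. Polymerase alpha-primase starts each strand, polymerases epsilon and delta extend it, and the sliding clamp PCNA, set down by the loader RFC, holds them on the template. Ribonucleotide reductase, thymidine kinase and thymidylate synthase supply the building blocks. Many of these genes are known targets of the E2F transcription factors and are quiet in resting cells, which make up most of an adult lung.

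Most of the 40 replication genes were more abundant in the knockout pool. Of the 40 genes, 39 had a higher level in the knockout pool, as had 56.8% of all genes over the floor, and the exception, the GINS subunit gene Gins4, was almost level. A total of 33 genes was at least 1.5-fold higher on the log2(FPKM + 1) scale, a scale that understates the difference of low genes, and none was that much lower. The floor was a mean FPKM of 1. Of the 12929 genes that reached it, 9.41% were past that fold upward and 4.63% downward. Of all genes past that fold, 67.0% were higher, and 55.4% when the libraries were scaled without the 100 most abundant genes, which left the count for the replication genes at 33. At a fold of 2 the count was 25 of the 40 genes, against 3.75% of all genes. The median log2 ratio was 1.20 for the replication genes and 0.05 for all genes over the floor. The counting interval of the FPKM ratio lay wholly above 1 for 39 of the 40, as it did for 33.3% of all genes over the floor.

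**Figure D1:**
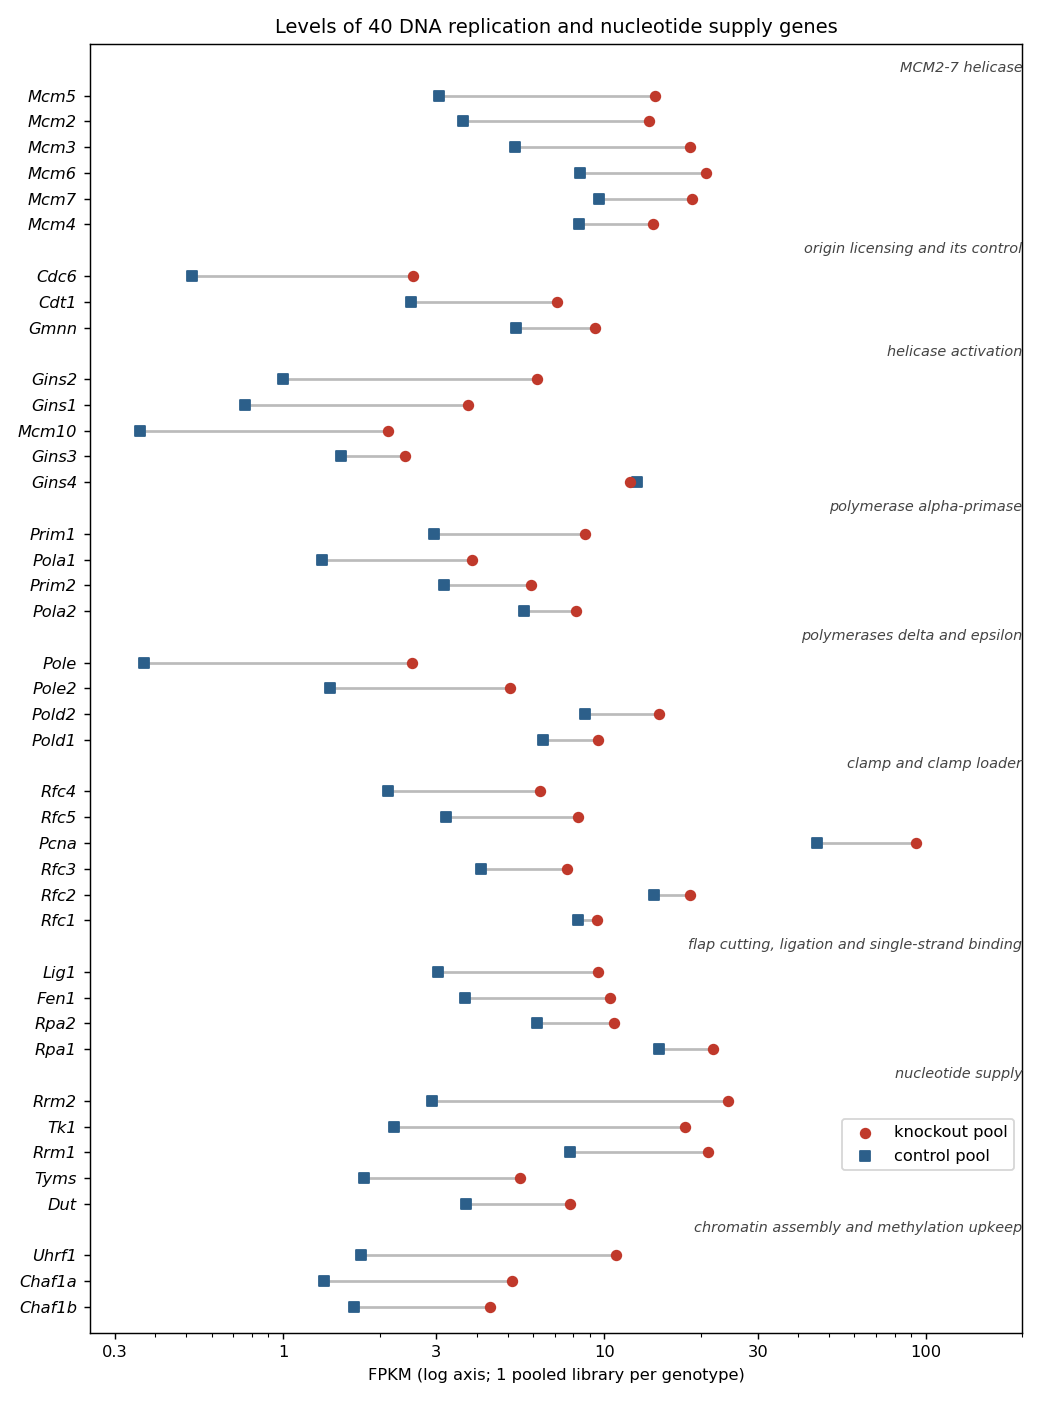
FPKM of the 40 genes in the knockout pool (red circles) and the control pool (blue squares), on a log axis, grouped by role, with 1 pooled library per genotype and no error bars. The circle lies to the right of the square for 39 genes, and the symbols of Gins4 (12.0 FPKM in the knockout and 12.6 in the control pool) nearly coincide.

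All 40 genes were over the floor of a mean FPKM of 1. In the control pool, however, 5 of them were below 1 FPKM: Mcm10, Pole, Cdc6, Gins1 and Gins2. These passed the floor through the knockout pool alone, so that a higher level there was built into their passing. The built-in difference was large for Mcm10, Pole and Cdc6, smaller for Gins1 and almost none for Gins2. The same limit holds for genes of the other lists over the floor with less than 1 FPKM in the control pool. Levels ran between 2.12 FPKM (Mcm10) and 93.3 FPKM (Pcna) in the knockout pool, and between 0.359 FPKM (Mcm10) and 45.8 FPKM (Pcna) in the control pool. The median gene stood at 9.39 FPKM in the knockout pool and 3.19 in the control pool, while the median of all genes over the floor was 9.64 FPKM in the knockout and 9.04 in the control pool. By this measure the replication genes sat near the middle of expressed genes in the knockout pool and below it in the control pool. Summed over the 40 genes, FPKM came to 497 in the knockout pool and 221 in the control pool, a ratio of 2.24.

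**Figure D2:**
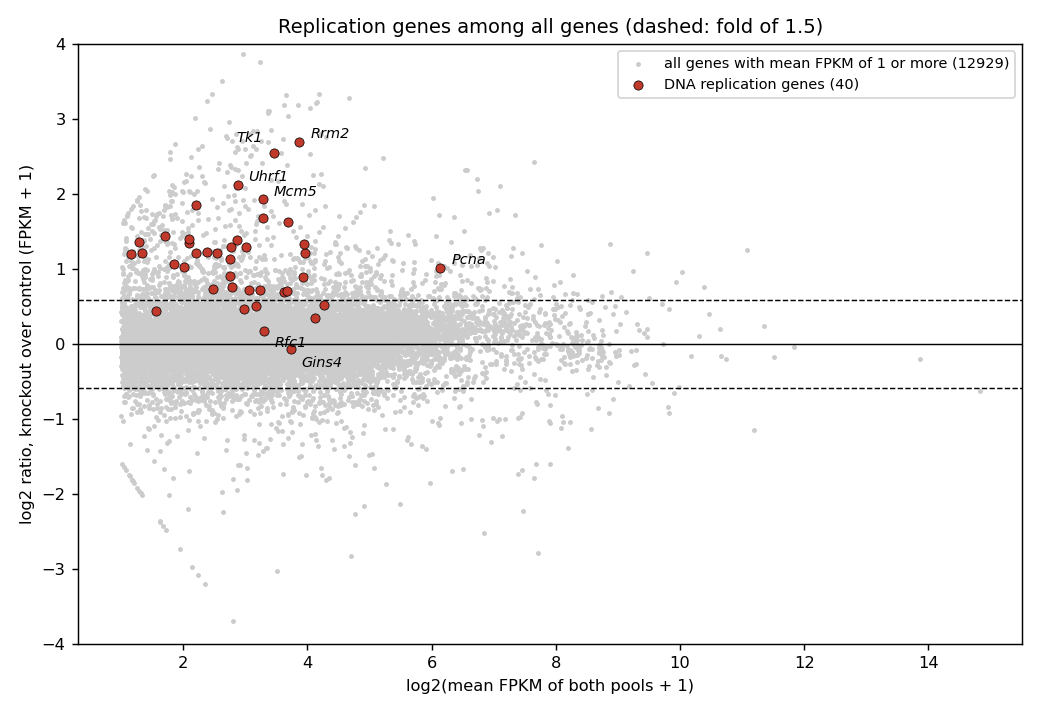
Log2 ratio of the knockout over the control pool against log2(mean FPKM + 1) for the 12929 genes over the floor (grey) and the 40 replication genes (red), with dashed lines at a fold of 1.5. The axis stops at 4, beyond which lie 4 grey genes. Of the red points, 33 lie above the upper line and none below the lower one.

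The genes of the MCM2-7 ring, the motor of the replication fork, were all past the 1.5-fold threshold, higher in the knockout pool. Mcm5 had 14.4 FPKM in the knockout pool and 3.05 in the control pool, 4.72-fold higher (3.98 to 5.62). Mcm2 had 13.8 FPKM in the knockout and 3.64 in the control pool, 3.79-fold higher (3.22 to 4.47), and Mcm3 had 18.5 FPKM in the knockout and 5.28 in the control pool. The other ring genes had higher levels in the control pool than these and differed less between the pools. Mcm6 had 20.7 FPKM in the knockout pool and 8.40 in the control pool, Mcm7 had 18.7 FPKM in the knockout and 9.60 in the control pool, and Mcm4 had 14.2 FPKM in the knockout and 8.35 in the control pool, the last at 1.69-fold higher (1.5 to 1.91). FPKM is scaled to length, so levels of subunits can be compared. The 6 subunits spanned 13.8 to 20.7 FPKM in the knockout pool, a 1.5-fold range, and 3.05 to 9.60 FPKM in the control pool, a 3.15-fold range. The ring's genes thus lay closer together in the knockout pool.

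Origin licensing genes and their inhibitor were also higher. The loader gene Cdc6 had 2.54 FPKM in the knockout pool and 0.519 in the control pool, 4.88-fold higher (3.41 to 7.14). Its partner Cdt1 had 7.12 FPKM in the knockout pool and 2.50 in the control pool, 2.85-fold higher (2.21 to 3.70). Gmnn encodes geminin, which binds CDT1 and blocks a further round of licensing. It had 9.33 FPKM in the knockout pool and 5.30 in the control pool, 1.76-fold higher (1.32 to 2.36). All 3 were past the 1.5-fold threshold, and the ratio of Cdt1 to Gmnn FPKM was 0.763 in the knockout pool and 0.471 in the control pool.

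The genes that activate the helicase split most widely. Mcm10, which encodes a factor that joins the helicase as origins fire, had 2.12 FPKM in the knockout pool and 0.359 in the control pool, 5.92-fold higher (3.66 to 10). Gins2 had 6.19 FPKM in the knockout and 0.999 in the control pool, 6.20-fold higher (3.64 to 11.1). Gins1 had 3.77 FPKM in the knockout and 0.762 in the control pool, from about 46.1 reads in the knockout and 12.9 in the control pool, the thinnest coverage among the 40 genes. Their products join GINS3 and GINS4 in a complex that is needed as a whole. Gins3 had 2.39 FPKM in the knockout pool and 1.51 in the control pool, 1.58-fold higher by the plain ratio (1.11 to 2.26) and short of the threshold at a log2 ratio of 0.43. Gins4 had 12.0 FPKM in the knockout pool and 12.6 in the control pool, a ratio of 0.951 with an interval of 0.792 to 1.14. The interval holds equality and lies wholly below the interval of every other GINS gene except Gins3. Gins4 was therefore 12.6 times as abundant as Gins2 in the control pool, and 1.93 times in the knockout pool.

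Every gene of polymerase alpha-primase, which lays down the first stretch of each strand, was higher. Prim1, the primase catalytic subunit gene, had 8.71 FPKM in the knockout pool and 2.95 in the control pool, 2.95-fold higher (2.23 to 3.92). The polymerase catalytic subunit gene Pola1 had 3.86 FPKM in the knockout pool and 1.32 in the control pool, 2.92-fold higher (2.34 to 3.66). The accessory subunits differed less: Prim2 had 5.92 FPKM in the knockout and 3.16 in the control pool and Pola2 had 8.15 FPKM in the knockout and 5.62 in the control pool. Pola2, at 1.45-fold (1.21 to 1.74), did not reach the threshold.

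Polymerase epsilon, which copies the leading strand, showed a wide contrast between its subunits. Pole, its catalytic subunit gene, had 2.52 FPKM in the knockout pool and 0.370 in the control pool, 6.83-fold higher (4.91 to 9.69). Pole2 had 5.10 FPKM in the knockout pool and 1.40 in the control pool, 3.63-fold higher (2.50 to 5.38). The small subunits, which are outside the 40 genes and were picked for naming after their values were seen, were close to level. Pole3 had 15.6 FPKM in the knockout pool and 13.1 in the control pool, and Pole4 had 18.8 FPKM in the knockout and 15.5 in the control pool. Across the 4 subunits the levels spanned a 7.43-fold range in the knockout pool and a 41.8-fold range in the control pool. Polymerase delta, which copies the lagging strand, differed less. Pold2 had 14.8 FPKM in the knockout pool and 8.71 in the control pool, 1.70-fold higher (1.42 to 2.02), and Pold1, its catalytic subunit gene, had 9.55 FPKM in the knockout and 6.42 in the control pool, just short of the threshold at a log2 ratio of 0.51.

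Pcna, the sliding clamp gene, was the most abundant of the 40. It had 93.3 FPKM in the knockout pool and 45.8 in the control pool, 2.04-fold higher (1.88 to 2.21). The clamp loader genes fell into a group that differed and a pair that differed little. Rfc4 had 6.28 FPKM in the knockout pool and 2.12 in the control pool, 2.96-fold higher (2.04 to 4.36). Rfc5 had 8.28 FPKM in the knockout and 3.22 in the control pool, and Rfc3 had 7.65 FPKM in the knockout and 4.12 in the control pool. Rfc1, the large subunit gene, and Rfc2 were the pair near level. Rfc1 had 9.45 FPKM in the knockout pool and 8.26 in the control pool, 1.14-fold higher (1.02 to 1.28), and Rfc2 had 18.4 FPKM in the knockout and 14.3 in the control pool, 1.29-fold higher (1.11 to 1.5). The range across the 5 RFC subunits was 2.93-fold in the knockout pool and 6.73-fold in the control pool.

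**Figure D3:**
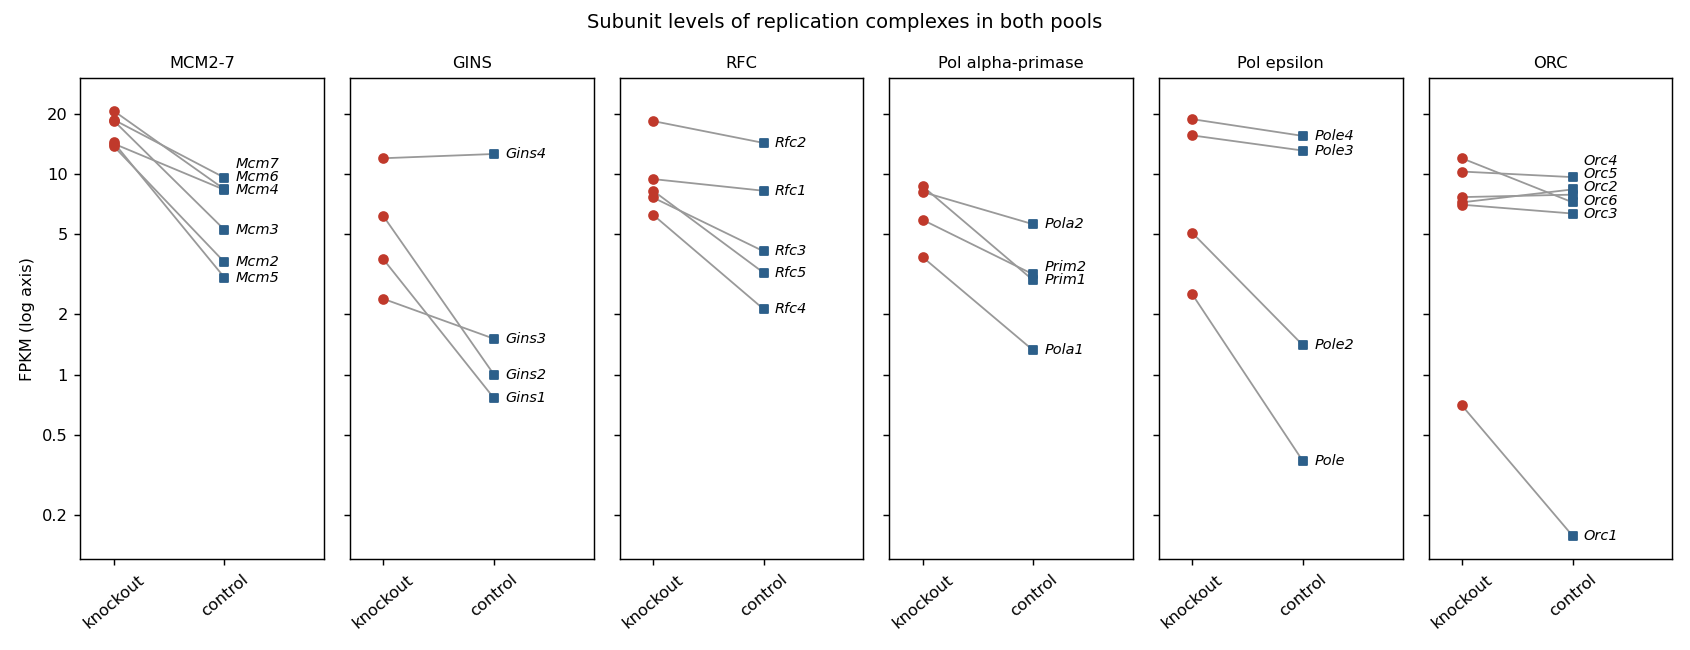
FPKM (log axis) of the subunits of replication complexes in the knockout pool (red circles, left) and the control pool (blue squares, right), 1 line per subunit. MCM2-7 subunits span 13.8 to 20.7 FPKM in the knockout pool and 3.05 to 9.60 in the control pool, while Gins4 and most ORC subunits run nearly level.

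Genes that finish the lagging strand were higher as well. Lig1, the ligase that seals Okazaki fragments, had 9.53 FPKM in the knockout pool and 3.03 in the control pool, 3.15-fold higher (2.60 to 3.82). Fen1, the nuclease that trims their flaps, had 10.4 FPKM in the knockout pool and 3.68 in the control pool, 2.83-fold higher (2.30 to 3.50). The genes of RPA, which coats single-stranded DNA in replication and in repair, differed less. Rpa2 had 10.7 FPKM in the knockout pool and 6.15 in the control pool, 1.74-fold higher (1.43 to 2.12). Rpa1 had 21.7 FPKM in the knockout pool and 14.8 in the control pool, 1.46-fold higher (1.32 to 1.61), just short of the threshold at a log2 ratio of 0.52. The genes just past the threshold were Mcm4 and Pold2, both at a log2 ratio of 0.70.

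Nucleotide supply genes held the top of the list. Rrm2, the regulated small subunit of ribonucleotide reductase, had 24.3 FPKM in the knockout pool and 2.90 in the control pool, 8.39-fold higher (6.81 to 10.4). Tk1, the cytosolic thymidine kinase, had 17.8 FPKM in the knockout pool and 2.22 in the control pool, 8.01-fold higher (5.93 to 11.0). Their log2 ratios, 2.70 and 2.54, were the highest of the 40. Rrm1, the large subunit gene of the reductase, had 21.0 FPKM in the knockout pool and 7.79 in the control pool, 2.70-fold higher (2.43 to 3.01). Rrm2 was thus 1.16 times as abundant as Rrm1 in the knockout pool, and 0.373 times in the control pool. Tyms, the thymidylate synthase gene, had 5.47 FPKM in the knockout pool and 1.79 in the control pool, and Dut, which removes dUTP, had 7.81 FPKM in the knockout and 3.71 in the control pool. Tyms-ps, a related record singled out with its values known, had 3.28 FPKM in the knockout and 1.30 in the control pool, and the sum of both was 2.83-fold higher in the knockout pool.

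The 3 replication genes grouped here as restoring chromatin behind the fork were all at least 2-fold higher on the log2(FPKM + 1) scale. Uhrf1 encodes the protein that guides the methylation of newly made DNA. It had 10.9 FPKM in the knockout pool and 1.75 in the control pool, 6.25-fold higher (5.04 to 7.82). Chaf1a and Chaf1b encode subunits of the histone chaperone CAF-1. Chaf1a had 5.17 FPKM in the knockout pool and 1.34 in the control pool, 3.86-fold higher (2.95 to 5.11), and Chaf1b had 4.40 FPKM in the knockout and 1.66 in the control pool, 2.65-fold higher (1.89 to 3.77). On the log2 scale Chaf1b was only just past that fold, at 1.02, and short of it at 0.97 when scaled by the median ratio. The related genes described further below hold others of this kind, named after their values were seen. Of these, Asf1a had a log2 ratio of 0.18, Dnmt1 of 0.76 and Asf1b of 1.97. By role, the summed FPKM of the 3 chromatin genes was 4.32-fold higher in the knockout pool and that of the nucleotide supply genes 4.15-fold. The sum was 2.62-fold higher for the MCM2-7 ring, 1.84-fold for the clamp and its loader, and 1.63-fold for the helicase activation genes, of which Gins4 makes up a large part.

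Of the 40 genes, 8 had more than 1 transcript record. For Uhrf1, both records that begin at chr17:56442760-56462909 (mm9) held the signal in the knockout pool, at 6.44 and 4.51 FPKM, and had 0.646 and 0.305 in the control pool. The records that begin further downstream, at 56443736, had 0.000164 and 0.000432 FPKM in the knockout pool and 0.771 and 0.0290 in the control pool. For Lig1, the main record had 9.45 FPKM in the knockout pool and 2.36 in the control pool, while the record with the most upstream start, at 13862662 on chromosome 7, had 0.0833 FPKM in the knockout and 0.665 in the control pool, opposite to the gene's sum. For Dut, the record that starts at 125073251 on chromosome 2 had 4.35 FPKM in the knockout pool and 1.29 in the control pool, and the other 3.47 FPKM in the knockout and 2.42 in the control pool. These records share most of their sequence and the control values rest on few reads, about 43.5 for the larger downstream Uhrf1 record and 34.8 for the upstream Lig1 record.

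The 40 genes lie on 15 chromosomes, with at most 7 on any of them. Promoter windows of 250 bases before and 50 bases from the transcription start on were taken from RefSeq (GRCm38.p6), which held 38 windows for 32 of the 40 genes. They were searched on both strands for the E2F words TTTCCCGC, TTTGGCGC, TTTCGCGC, TTTGCCGC and TTTCCCGG, for the CHR words TTTGAA and TTTAAA, and for CCAAT. The upstream 250 bases are printed, 5′ to 3′ on the gene's strand, for the gene with the highest ratio (Rrm2), the most abundant gene (Pcna), the most abundant ring gene (Mcm6), and the gene with the lowest ratio that had a window (Rfc1). Capitals mark a match to any of the words, and words that overlap run together.
Rrm2: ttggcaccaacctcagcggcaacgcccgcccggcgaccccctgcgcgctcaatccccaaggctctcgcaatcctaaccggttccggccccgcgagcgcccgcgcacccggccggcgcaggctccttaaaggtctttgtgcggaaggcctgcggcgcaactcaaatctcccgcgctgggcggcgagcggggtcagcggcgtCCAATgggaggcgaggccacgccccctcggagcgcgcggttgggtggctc
Pcna: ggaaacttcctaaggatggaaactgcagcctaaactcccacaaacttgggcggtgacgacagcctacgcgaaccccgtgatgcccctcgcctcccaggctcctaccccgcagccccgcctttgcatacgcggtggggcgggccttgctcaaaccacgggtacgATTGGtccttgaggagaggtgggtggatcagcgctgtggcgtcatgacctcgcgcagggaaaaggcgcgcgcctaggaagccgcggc
Mcm6: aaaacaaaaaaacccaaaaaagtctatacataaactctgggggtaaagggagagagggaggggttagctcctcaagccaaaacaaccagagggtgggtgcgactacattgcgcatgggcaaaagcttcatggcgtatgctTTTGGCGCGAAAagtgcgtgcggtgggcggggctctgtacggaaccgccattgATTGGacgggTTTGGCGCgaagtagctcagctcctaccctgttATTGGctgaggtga
Rfc1: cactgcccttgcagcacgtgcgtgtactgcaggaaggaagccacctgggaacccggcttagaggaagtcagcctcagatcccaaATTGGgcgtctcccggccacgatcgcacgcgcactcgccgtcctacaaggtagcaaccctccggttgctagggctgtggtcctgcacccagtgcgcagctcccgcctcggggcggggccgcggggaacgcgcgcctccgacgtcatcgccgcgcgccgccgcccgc
In GRCm38.p6 these stretches are chr12:24708004-24708253 on the plus strand for Rrm2, and on the minus strand chr2:132253181-132253430 for Pcna, chr1:128359706-128359955 for Mcm6 and chr5:65335640-65335889 for Rfc1.

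The Mcm6 stretch held E2F words at positions -110 to -103, -106 to -99 and -47 to -40, where -1 is the base before the start, and CCAAT at -57 to -53 and -14 to -10 on the opposite strand. Both E2F words at the distal site overlap. Rrm2 held CCAAT at -50 to -46 and the palindromic CHR word at 1 to 6, just past the printed bases. In Pcna and Rfc1 the printed bases matched CCAAT alone. Across the list, 13 of 38 windows (34.2%) held an E2F word, against 3.48% of all 32851 windows. The windows of the replication genes were richer in G and C, with a median of 60.7% against 52.7%. Among windows with at least 60% G and C, a split chosen after these values were seen, 7 of 20 windows of the replication genes and 6.45% of all 9690 held an E2F word. CCAAT was found in 55.3% of the replication gene windows and 37.4% of all windows, and a CHR word in 21.1% and 27.6%. For the CHR words the order turned in the windows with at least 60% G and C, where 3 of 20 windows of the replication genes and 9.01% of all held one. The 13 genes with an E2F word had a median log2 ratio of 1.22 (range 0.43 to 2.12), and the 19 without one had a median of 1.20 (range 0.18 to 2.70). Uhrf1, the highest of the 13, had its E2F word only in the more downstream of its windows. Its records with the downstream start held almost none of its signal in the knockout pool, so its ratio does not describe that promoter. A match is a run of letters and not a measured binding site.

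Beyond the 40 genes, 65 related genes of origin firing, the fork and nucleotide synthesis were examined, of which 59 were over the floor. Of these, 24 reached a fold of 1.5 upward, against the 9.41% of all genes, and 1 was lower. Their median log2 ratio was 0.31. They thus held a part that differed as the replication genes did and a part that was level.

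Among 13 origin genes over the floor, 7 were at least 1.5-fold higher, against 9.41% of all genes, and none lower. Their median log2 ratio was 0.66. That median was 0.10 with a floor of mean FPKM 5, so it depended on the origin genes of low level. Cdc45, which completes the active helicase with GINS and MCM2-7, led them with 6.27 FPKM in the knockout pool and 1.16 in the control pool, 5.39-fold higher (3.79 to 7.83). Orc5 was the lowest, at 7.23 FPKM in the knockout pool and 8.39 in the control pool, with an interval of 0.713 to 1.04 around its ratio. The abundant Mcmbp, an MCM-binding protein gene, had 15.7 FPKM in the knockout and 15.1 in the control pool, and Orc4 had 10.3 FPKM in the knockout and 9.66 in the control pool. Orc1, Ticrr and Recql4 were under the floor and are named after their values were seen, each higher in the knockout pool. The origin recognition complex, which marks origins through the cell cycle, summed to 44.9 FPKM over its 6 genes in the knockout pool and 39.7 in the control pool, a ratio of 1.13.

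Of 21 other fork and chromatin genes over the floor, 10 were at least 1.5-fold higher, against 9.41% of all genes, and none lower. Their median was 0.56, or 0.32 with a floor of mean FPKM 5. The highest was Pclaf, a PCNA-binding factor gene listed as 2810417H13Rik, at 9.78 FPKM in the knockout pool and 1.19 in the control pool, 8.21-fold higher (6.02 to 11.4). The lowest was also the most abundant, Chtf8, part of an alternative clamp loader, at 32.5 FPKM in the knockout and 32.2 in the control pool. Rnaseh2c, a subunit of the enzyme that removes ribonucleotides from DNA, was next in abundance at 24.9 FPKM in the knockout and 23.8 in the control pool. Among 25 other nucleotide synthesis genes, 7 were at least 1.5-fold higher and 1 lower, against 9.41% and 4.63% of all genes. Their median was 0.19. Dck, the deoxycytidine salvage kinase, led at 12.0 FPKM in the knockout pool and 3.92 in the control pool, 3.05-fold higher (2.58 to 3.62). Impdh1, an enzyme of guanine nucleotide synthesis, was 1.63-fold lower (1.51 to 1.76), at 30.8 FPKM in the knockout pool and 50.1 in the control pool. The most abundant were Nme2, a nucleoside diphosphate kinase gene at 191 FPKM in the knockout and 119 in the control pool, and the nucleoside transporter gene Slc29a1 at 68.4 FPKM in the knockout and 59.2 in the control pool.

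Genes for copying the mitochondrial genome were close to level, and most of those for translesion and repair synthesis were too. Of 12 mitochondrial replication genes, none was past 1.5-fold in either direction, with a median log2 ratio of -0.09. Rrm2b, the reductase small subunit that serves resting cells, was the lowest, at 7.31 FPKM in the knockout pool and 10.5 in the control pool, 1.44-fold lower (1.28 to 1.62). Mgme1, a mitochondrial nuclease gene listed as 2310003L22Rik, was the highest at 2.99 FPKM in the knockout and 2.05 in the control pool. The abundant Polg, the mitochondrial polymerase, had 15.7 FPKM in the knockout and 16.4 in the control pool. Dguok, a mitochondrial kinase gene, had 13 FPKM in the knockout and 14.5 in the control pool. The order of the S-phase and resting-cell enzymes was reversed between the pools. Rrm2 was 3.33 times as abundant as Rrm2b in the knockout pool and 0.276 times in the control pool. Tk2, the mitochondrial counterpart of Tk1 and singled out with its values known, had 7.58 FPKM in the knockout and 9.86 in the control pool. Tk1 was 2.34 times as abundant as Tk2 in the knockout pool, and 0.225 times in the control pool. The median of the 9 repair and translesion polymerase genes over the floor was 0.10. At least 1.5-fold higher was 1 of these 9, against 9.41% of all genes. It was Polh, at 7.74 FPKM in the knockout and 3.95 in the control pool. The gene under the floor was Polq, a polymerase of end joining, singled out with its values known. It had 0.825 FPKM in the knockout pool and 0.152 in the control pool, 5.44-fold higher (3.34 to 9.26), from about 81.2 reads in the knockout and 21.4 in the control pool. Among the others, Polb had 13.6 FPKM in the knockout and 12.9 in the control pool, Mad2l2 9.88 FPKM in the knockout and 8.68 in the control pool, and Rev1, the lowest, 3.23 FPKM in the knockout and 4.19 in the control pool. A list of 6 genes with the helicase relative Mcm8 and the dNTP hydrolase Samhd1 had none past the threshold on the log2(FPKM + 1) scale. Mcm8 was its highest, at 1.66 FPKM in the knockout pool and 0.868 in the control pool, 1.92-fold higher by the plain ratio (1.30 to 2.85) and short of the threshold at a log2 ratio of 0.51, or past it at 0.86 with a pseudocount of 0.1. Nt5c was the lowest, at 23.0 FPKM in the knockout pool and 27.6 in the control pool, with Samhd1 the most abundant at 57.0 FPKM in the knockout and 63.1 in the control pool.

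**Figure D4:**
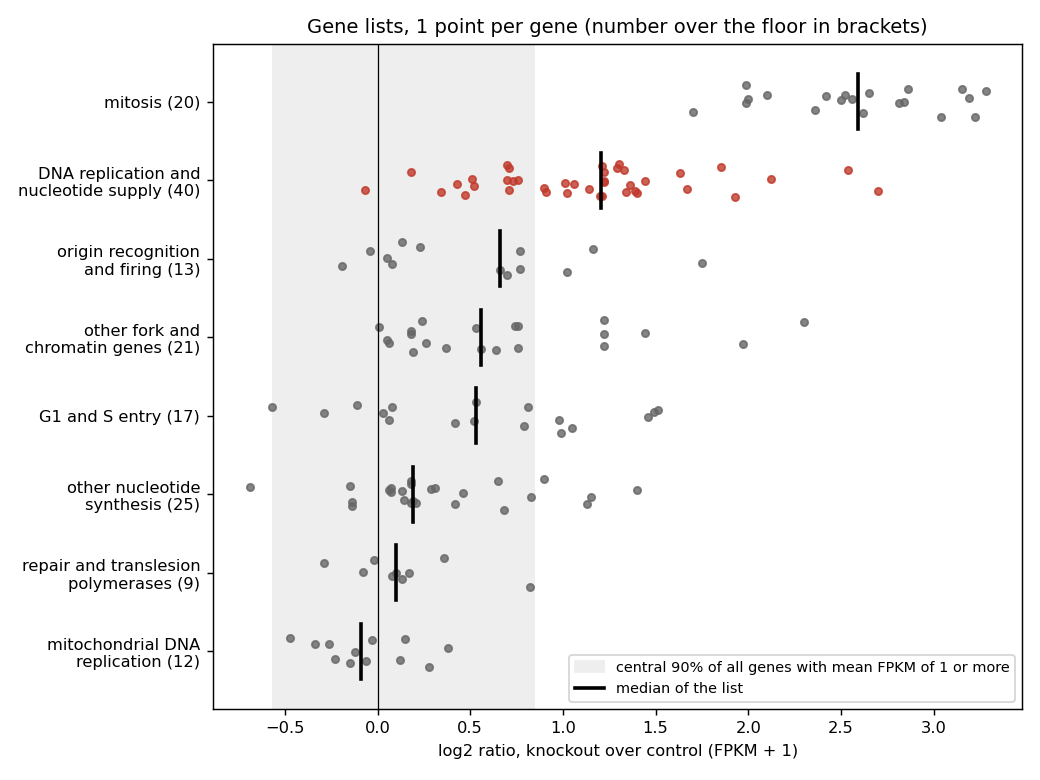
Log2 ratio of the knockout over the control pool for the genes over the floor in each list, 1 point per gene, with a black bar at the median and a grey band over the central 90% of all genes over the floor. Medians are 2.59 for mitosis, 1.20 for DNA replication and nucleotide supply, 0.66 for origin recognition and firing, 0.56 for other fork and chromatin genes, 0.53 for G1 and S entry, 0.19 for other nucleotide synthesis, 0.10 for repair polymerases and -0.09 for mitochondrial DNA replication.

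Mitotic genes were higher by more than the replication genes, a difference between lists in 1 pair of libraries that was not tested. All 20 mitotic genes were at least 2-fold higher, against 3.75% of all genes over the floor. Their median ratio was 11.2 in plain FPKM, against 2.77 for the replication genes. Ube2c, a ubiquitin-conjugating enzyme of mitotic exit, had 45.1 FPKM in the knockout pool and 3.76 in the control pool, and Cdc20, which activates the ubiquitin ligase that UBE2C serves, had 30.6 FPKM in the knockout and 2.40 in the control pool. Cenpe, a kinetochore motor gene, was the lowest on the log2 scale at 3.52 FPKM in the knockout and 0.389 in the control pool. Genes of G1 and S phase entry were mixed, with 8 of 17 at least 1.5-fold higher and none lower, against 9.41% and 4.63% of all genes. E2f7, an E2F repressor gene, led at 3.18 FPKM in the knockout pool and 0.466 in the control pool, 6.82-fold higher (4.89 to 9.73). E2f7, Cenpe and some other genes of both lists passed the floor through the knockout pool alone, so a higher level there was built in. The abundant cyclin genes Ccnd1, at 126 FPKM in the knockout and 71.2 in the control pool, and Ccnd3, at 121 FPKM in the knockout and 83.6 in the control pool, differed less. Cdkn1b, which encodes the CDK inhibitor p27, had 23.5 FPKM in the knockout pool and 35.4 in the control pool, 1.5-fold lower by the plain ratio (1.37 to 1.65) and short of the threshold at a log2 ratio of -0.57.

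Markers of thymocytes and of myeloid and erythroid precursors, which divide outside the lung, were mostly under the floor, and none over it was past 1.5-fold. Genes listed at 0 are named after their values were seen. Of 6 thymocyte markers, 2 were over the floor, and the list summed to 5.83 FPKM in the knockout pool and 6.80 in the control pool. Rag2 was listed at 0 in both pools, Rag1 at 0 in the knockout pool, and Dntt at 0 in the control pool. The 5 myeloid progenitor markers were all under the floor, at a sum of 1.09 FPKM in the knockout pool and 0.377 in the control pool, with Elane and Ctsg listed at 0 in the control pool and Ms4a3 at 0 in the knockout pool. Erythroid precursor markers, with 2 of 7 over the floor, summed to 24.8 FPKM in the knockout pool and 28.7 in the control pool, of which Alas2 gave 21.7 FPKM in the knockout and 25.9 in the control pool. T and NK markers summed to 12.2 FPKM in the knockout and 17.9 in the control pool. All 5 were lower in the knockout pool, as were 5588 of the 12929 genes over the floor, and 2 of them had a counting interval wholly below 1. At least 1.5-fold lower was 1 of the 5, against 4.63% of all genes over the floor. This was Gzmb, a granzyme gene of cytotoxic cells, at 1.17 FPKM in the knockout pool and 2.37 in the control pool, 2.03-fold lower (1.21 to 3.53). Nkg7, the most abundant, had 5.32 FPKM in the knockout pool and 8.32 in the control pool, 1.56-fold lower by the plain ratio (1.12 to 2.20) and short of the threshold at a log2 ratio of -0.56. Cd8a was nearest to level, at 1.03 FPKM in the knockout pool and 1.19 in the control pool. B lineage markers summed to 41.1 FPKM in the knockout and 32.4 in the control pool, with 4 of 6 over the floor, none past 1.5-fold, and Igll1 listed at 0 in both. Cd79b was the highest of them, at 16 FPKM in the knockout pool and 11 in the control pool, and Cd79a the lowest, at 13 FPKM in the knockout pool and 12.1 in the control pool.

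Some genes of other lists, and Col1a1 among the lung genes, were also higher in the knockout pool, and their part in the result was not tested. Macrophage markers summed to 155 FPKM in the knockout pool and 88.2 in the control pool. Of these markers, 3 of 5 were at least 1.5-fold higher, against 9.41% of all genes. They ran from Csf1r, at 31.5 FPKM in the knockout and 33.9 in the control pool, to Marco, at 15.4 FPKM in the knockout and 3.81 in the control pool, with Cd68 at 48.2 FPKM in the knockout and 21.7 in the control pool and C1qb at 50 FPKM in the knockout and 22 in the control pool. Of 7 imprinted growth genes over the floor, which are most active in the growing lung, 3 were at least 1.5-fold higher, against 9.41% of all genes. Their median log2 ratio was 0.30. H19 had 16.5 FPKM in the knockout pool and 0.295 in the control pool, and Mest had 26.9 FPKM in the knockout and 3.83 in the control pool. H19 passed the floor through the knockout pool alone, so a higher level there was built in. Plagl1 had 8.51 FPKM in the knockout and 11.1 in the control pool and Cdkn1c 18.4 FPKM in the knockout and 16.5 in the control pool, and Dlk1 was listed at 0 in both pools. The labels do not say whether the pools differed in age.

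Reads of near-identical or overlapping genes could be divided differently between the libraries. In a search against GENCODE M21 transcripts, 13 of the 40 genes shared at least 200 bases at 95% identity or more with a transcript of another gene. These were Cdc6, Chaf1a, Fen1, Gins2, Lig1, Mcm7, Pcna, Pole2, Rfc2, Rfc5, Rrm2, Tyms and Uhrf1. The search used the longest coding transcript of each gene, which can exceed the deposited record. For Gins2 it had 3900 bases, of which 2758 matched Gse1, against 1038 bases in the deposited record. Part of the shared sequence therefore lies outside what was measured. In the deposited annotation the record of Gins2 overlaps that of Gse1 by 118 bases, Rfc4 overlaps Eif4a2 by 185, Tk1 overlaps Afmid by 96, Pold2 overlaps Aebp1 by 46, and Lig1 overlaps 6330408A02Rik by 1409, introns included. Mcm7 holds Mir25, Mir93 and Mir106b within its introns. The labels do not state whether the libraries kept strand. The values of these genes are uncertain to that extent.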

How the data were processed

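Whole-lung RNA of a knockout and a control pool was sequenced, 1 library each. The authors deposited FPKM values for 28107 RefSeq transcripts per library, and per the file headers also coverage, the depth of aligned bases, which is proportional to FPKM in each file. The submitters' processing notes name the build mm9 and the tool DESeq without its role. Aligner and quantifier: not given in the sources used here.

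From these, FPKM was summed per gene symbol. Ratios on the log scale are knockout minus control in log2(FPKM + 1), and gene counts used a mean FPKM of 1 or more. A read was taken as 47.6 aligned bases in the knockout and 47.5 in the control library, the median of coverage times length between 35 and 65 bases over single-transcript genes. Counting intervals are exact conditional (Clopper-Pearson) 95% intervals from these approximate reads. The simulated counts used to check them held counting error alone, so that check does not cover the approximation of the reads. FPKM depends on the library total, so abundant transcripts can shift all values. All 51 records of the 40 genes had the status OK.

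The genes and lists were chosen with earlier results of these data known. All 40 genes could be named; other lists could give their highest and lowest gene and the most abundant pair over the floor, of which the text prints a part. Any other gene outside the 40, such as one under the floor or listed at 0, or Col1a1, was named after its values were seen. Alternatives changed the pseudocount, the floor, the scaling, the transcripts summed and the record status. Python 3.11.15, scipy 1.17.1 and matplotlib 3.10.9 were used.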

Additional observations from a re-analysis of the deposited data

How the results depend on the processing

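No replication gene was at least 1.5-fold lower under any of the 9 alternatives run, and Gins4 alone lay below equality in each of them. With a pseudocount of 3, which shrinks the ratios of low genes by construction, the count at a fold of 2 was 11 in place of 25 and the median log2 ratio 0.80 in place of 1.20. The 1.5-fold count was 29 there in place of 33, and that of the related genes was 18 in place of 24. With a floor of mean FPKM 5, 26 of the 40 genes remained, of which 20 were at least 1.5-fold and 13 at least 2-fold higher. Of the related genes, 15 were at least 1.5-fold higher in place of 24. Fewer genes were counted there, and the median log2 ratio of the replication genes was also lower, 0.96 in place of 1.20. The median of the origin genes was 0.10 with this floor in place of 0.66. Under the remaining settings, which are a pseudocount of 0.1, no floor, 3 other scalings, the most abundant transcript in place of the sum, and records of status OK only, the 1.5-fold count was 33 or 34 and the median 1.13 to 1.45. The share of all genes at least 1.5-fold higher ran between 6.39% and 11.8% over the alternatives. No paired analysis was possible because each genotype has 1 pooled library and the labels give no replicate numbers; for the same reason no library could be left out. Depth limits the genes that are low in the control pool, where Gins1 rests on about 12.9 reads.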
